A study of Mus musculus with 18 samples.

Results

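The genes described here burn short, medium and long fatty acids in mitochondria, carry butyrate and its relatives into the cell, or control such genes. The 9 genes were taken by name (Acads, Acadm, Acadvl, Hadha, Hadhb, Cpt1a, Cpt2, Slc16a1 and Pparg), and every probe of the array table whose gene symbol was one of these names was used. This gave 15 probes of 8 genes, out of 45281 probes and 30869 gene symbols in all. The expression of Hadha was not analysed here, since no probe carried its symbol. Of the 15 probes, 11 probes of 6 genes were detected and tested, and each of these 11 was detected on all 18 arrays.

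RNA came from colon epithelial cells (CECs) of C57BL/6 mice, sorted by flow cytometry as cells that carried EpCAM, a surface protein of epithelium, and lacked surface markers of leucocytes, T cells and macrophages. The mice were wild-type (WT) or lacked Mbd2, a protein that binds methylated DNA, in the whole animal (Mbd2KO), so the loss was not limited to epithelium. They were left untreated (naive) or drank 2% dextran sulphate sodium (DSS), a chemical that damages the epithelium of the colon and so brings on colitis, for 6 days. Ages were not given in the labels, and a replicate could pool several mice. The 4 groups, DSS_WT, DSS_KO, Naive_WT and Naive_KO, held 4 samples each. In DSS_WT and DSS_KO, 1 sample each was the mean of a pair of arrays with the same name (4 with 4R, 5 with 5R). The p-values measure the spread between these samples. All levels below are background-corrected, quantile-normalized intensities on the log2 scale, and all differences are on that log2 scale unless called a fold.

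Butyrate, made by gut bacteria from fibre, is a main fuel of the colon epithelium. It enters the cell through monocarboxylate carriers such as Slc16a1 (Mct1) and Slc5a8, is joined to coenzyme A, and is then shortened by the same cycle of dehydrogenation, hydration and thiolysis that breaks down longer fatty acids. Acads, Acadm and Acadvl start the cycle for short, medium and very long chains, Hadha and Hadhb form the trifunctional protein that finishes it for long chains, and Cpt1a and Cpt2 bring long chains into the mitochondrion as carnitine esters. Pparg is a nuclear receptor for fatty acids that is abundant in colon epithelium and in fat cells.

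Several of these genes were read by more than 1 probe of 50 bases, and the probe sequences show what was independent. They are given 5′ to 3′ as the deposited table holds them, and each is named by the base of the transcript at which it starts. The Cpt2 probes at bases 2203 and 2205 overlap in 48 bases, set in capitals, so they were not separate readings of Cpt2. The Cpt2 probe at base 1957 shared none of these bases.
Cpt2, base 2203: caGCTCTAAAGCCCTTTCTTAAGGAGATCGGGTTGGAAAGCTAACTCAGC
Cpt2, base 2205: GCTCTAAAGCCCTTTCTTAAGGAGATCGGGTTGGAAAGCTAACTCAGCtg
Cpt2, base 1957: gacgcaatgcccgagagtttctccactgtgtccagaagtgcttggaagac

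The 3 Pparg probes lay apart in the transcript, and the one nearest to its start was the one that stayed near background. They are shown because the level given for Pparg depends on which is read.
Pparg, base 1436: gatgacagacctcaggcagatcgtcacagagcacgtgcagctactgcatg
Pparg, base 287: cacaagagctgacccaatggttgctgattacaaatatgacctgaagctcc
Pparg, base 22: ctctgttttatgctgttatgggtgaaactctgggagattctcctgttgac
The remaining probes that the results turn on were Acads at base 1014, the dimmer of 2 Acads probes, and Acadvl at base 1855, the brighter of 2 Acadvl probes.
Acads, base 1014: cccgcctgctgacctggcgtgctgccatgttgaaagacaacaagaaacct
Acadvl, base 1855: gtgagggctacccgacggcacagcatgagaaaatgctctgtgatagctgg

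The 18 arrays detected 18851 to 20618 probes each. The Mbd2 probe was detected on 0 of them, with signals of 107 to 124 in DSS_KO against 111 to 126 in DSS_WT, so it checked nothing about the genotype labels. All 10 markers of epithelium were tested, and their summed normalized intensity on the linear scale was 70359 to 79051 in DSS_WT, 74447 to 81170 in DSS_KO, 74333 to 91887 in Naive_WT and 74985 to 88919 in Naive_KO. Of these 10, 1 was lower with DSS in WT (Cdh1), and 0 passed in the other pairwise comparisons by limma, with 1 or 2 at an unadjusted p under 0.05. Markers of other cells moved too. With DSS, 7 of 9 tested myeloid markers were higher in WT and 8 of 9 in Mbd2KO, from sums of 1722 to 2542 (Naive_WT) and 1887 to 3441 (Naive_KO) to 2592 to 4854 (DSS_WT) and 4351 to 5004 (DSS_KO), although Ptprc, which encodes CD45, was detected on at most 3 arrays. With DSS in WT, 7 of 10 fibroblast and 4 of 6 T and NK cell markers were higher as well (0 of 10 and 1 of 6 in Mbd2KO), and 2 of 4 neutrophil markers were higher in each genotype. The tested neutrophil markers were detected on at most 9 to 11 of 18 arrays. Their sums were 90.9 to 106 in Naive_WT and 88.7 to 110 in Naive_KO. Detection on DSS arrays alone was enough for a test, so such counts are not separate from that filter. Of 12 markers of colonocytes, the absorptive cells that burn butyrate, 1 was lower with DSS in WT (Car2) and 3 in Mbd2KO (Car2, Car4 and Aqp8), and 1 was lower in DSS_KO than in DSS_WT (Aqp8). In DSS_KO against DSS_WT, 5 of 7 smooth muscle, 5 of 8 endothelial and 3 of 10 fibroblast markers were lower. The part of these cells in the results below was not tested. In sorted bulk RNA, fewer cells of a type and less RNA per cell cannot be told apart.

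Among the members, the genes of fuel entry could be read least. Slc16a1, the carrier of lactate and butyrate, had 1 probe, which was detected on 0 of 18 arrays. Its raw signal was 93 to 133, or 0.925 to 1.08 times the mean of that array's negative controls. Cpt1a, which attaches carnitine to long chains at the outer membrane, had 2 probes. The probe at base 310 had raw signals of 104 to 139 and was detected on 2 arrays, 1 of Naive_WT and 1 of Naive_KO. The probe at base 4177 had signals of 98.1 to 140 and was detected on 0 arrays. The 95th percentile of the negative controls was 1.09 to 1.16 times their mean on each array, and the highest Cpt1a ratio was 1.17. The Pparg probe at base 22 was the fourth that stayed near background, at 0.903 to 1.04 times the negative mean and on 0 arrays. No group difference was tested for these 4 probes, and with such signals a difference in Slc16a1 or Cpt1a was not detectable on this array.

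**Figure D1:**
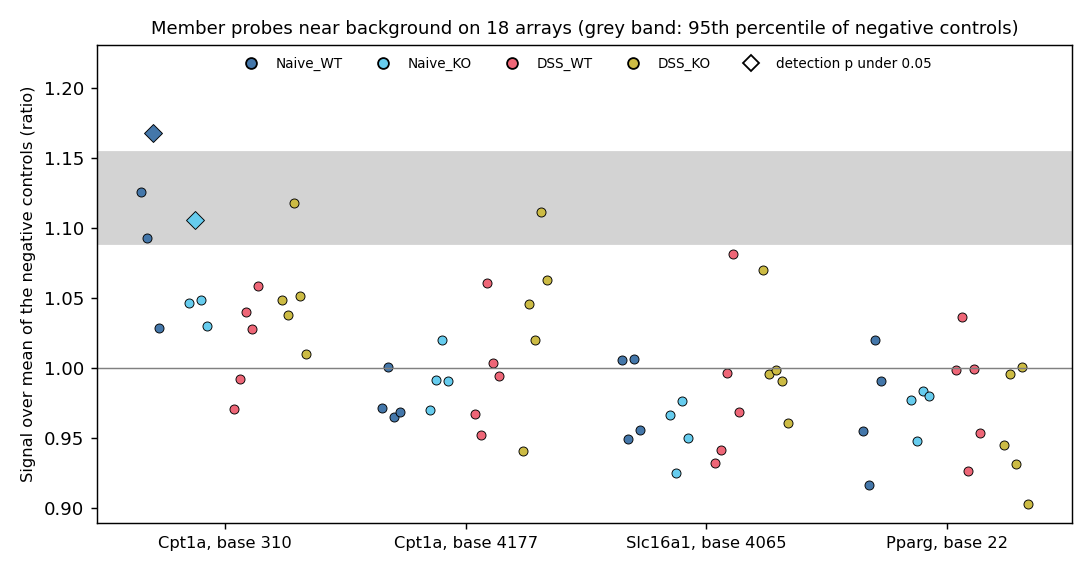
Raw signal of the 4 probes of Cpt1a, Slc16a1 and Pparg that were not tested, divided by the mean of that array's negative controls, for the 18 arrays by group. The points lie between 0.903 and 1.17, not well above the negative controls.

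Cpt2, which takes the carnitine off again inside the mitochondrion, was measured well. Its brightest probe, at base 2203, read 11.65, 11.73, 11.38 and 11.60 in DSS_WT and 12.11, 11.61, 11.61 and 11.50 in DSS_KO. The naive samples read 11.51, 11.43, 11.65 and 11.34 in Naive_WT and 11.42, 11.34, 11.89 and 11.46 in Naive_KO. All 4 groups overlapped, and the means were 11.59 ± 0.15, 11.71 ± 0.27, 11.48 ± 0.13 and 11.53 ± 0.25 (SD, n = 4 each). DSS minus naive was 0.11 ± 0.15 (SE) in WT and 0.18 ± 0.15 in Mbd2KO, with limma adjusted p of 0.694 and 0.483. The probe at base 1957, which reads other bases, gave 0.17 ± 0.13 and 0.24 ± 0.13, with limma adjusted p of 0.431 and 0.268. All 3 Cpt2 probes thus had a higher mean with DSS in both genotypes, by amounts that did not pass the test.

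Acads, the dehydrogenase for butyryl-CoA and so the first oxidative step for butyrate, had higher means in Mbd2KO than in WT, with and without DSS, at both of its probes. The brightest probes of Acadvl, Cpt2 and Pparg had such an order too, with differences of at most 0.12. Its brightest probe, at base 1679, read 11.20, 11.57, 11.35 and 11.06 in DSS_WT and 11.66, 11.39, 11.74 and 11.48 in DSS_KO. It read 11.68, 11.42, 11.23 and 10.84 in Naive_WT and 11.62, 11.46, 11.89 and 11.63 in Naive_KO. Samples of both genotypes overlapped in each condition, with Naive_WT the most spread out (SD 0.35). Mbd2KO minus WT was 0.27 ± 0.16 (SE) with DSS and 0.36 ± 0.16 without, and neither passed (limma adjusted p 0.352 and 0.206). The second probe, at base 1014, read 9.61, 9.02, 9.62 and 8.92 in DSS_WT, 9.92, 9.87, 9.85 and 9.40 in DSS_KO, 9.87, 9.23, 9.61 and 9.26 in Naive_WT, and 9.75, 9.87, 9.90 and 9.99 in Naive_KO. Its differences of 0.47 ± 0.18 and 0.38 ± 0.18 pointed the same way (limma adjusted p 0.139 and 0.219). DSS moved neither probe past the test, with differences for the probe at base 1679 of 0.00 in WT (95% confidence interval -0.35 to 0.35) and -0.08 in Mbd2KO (-0.43 to 0.27).

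Averaged over naive and DSS, a comparison added after the values had been seen, Acads was higher in Mbd2KO by 0.43 ± 0.13 (SE) at base 1014 (1.34-fold, limma adjusted p 0.0359), where 14.5% of all probes passed, 6.62% as higher. At base 1679 the difference was 0.32 (1.25-fold, 95% confidence interval 0.07 to 0.56, limma adjusted p 0.0767). So 1 of the 2 Acads probes passed and the other did not. The call at base 1014 was lost without any 1 of 10 of the 16 samples (DSS_WT replicates 2 and 4, DSS_KO replicates 5, 6 and 7, Naive_WT replicates 10 and 12, and Naive_KO replicates 14, 15 and 16), at adjusted p of 0.0544 to 0.0783. Without Naive_WT replicate 9 the probe at base 1679 passed as well (limma adjusted p 0.0293). Leaving out any 1 sample kept the difference at base 1014 between 0.36 and 0.49. The call at base 1014 also depended on the scale. With arrays scaled to the median of all probes in place of quantile normalization, the difference was 0.33 (limma adjusted p 0.167). With arrays scaled to the median of the tested probes it was 0.40 (0.0509). The call was lost with array weights (0.0580) and without the detection filter (0.0664) as well. It passed without background correction, with a stricter filter, with all arrays as separate samples and without arrays 4R and 5R.

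Acadm, which starts the cycle for medium chains, was the member with the lowest adjusted p for DSS. It read 12.10, 12.00, 12.16 and 12.21 in Naive_WT and 11.88, 11.96, 11.71 and 11.56 in DSS_WT. Every DSS sample of WT lay below every naive one, and 17% of all probes had no overlap between these groups in one direction or the other. In Mbd2KO it read 11.74, 11.95, 12.14 and 12.29 without DSS and 11.91, 11.55, 11.59 and 11.56 with DSS, where replicate 5 of DSS_KO overlapped the naive samples. DSS minus naive was -0.34 in WT (95% confidence interval -0.63 to -0.06) and -0.38 in Mbd2KO (-0.66 to -0.10), with limma adjusted p of 0.108 and 0.0831. Neither passed on its own, and the difference between them was -0.04 ± 0.19. In Mbd2KO, the comparison passed without Naive_KO replicate 13 (-0.48, limma adjusted p 0.0329).

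Averaged over both genotypes, Acadm was lower with DSS by a difference of -0.36 ± 0.09 (SE; 1.29-fold lower, 95% confidence interval of the difference -0.56 to -0.16, limma adjusted p 0.0122). This comparison was likewise added after the values had been seen, and 20.8% of all probes passed it, 10.2% as lower. The call passed without any 1 sample (adjusted p 0.00491 to 0.0304), but it depended on the scale. With arrays scaled to the median of the tested probes in place of quantile normalization the Acadm difference was -0.27 (limma adjusted p 0.0555), and with arrays scaled to the median of all 45281 probes it was 0.03 (0.851), a scale on which the median of all tested probes itself moved with DSS by 0.24 in WT and 0.23 in Mbd2KO. The fall of Acadm was thus one relative to the other probes. Mbd2KO minus WT for Acadm was -0.12 with DSS and -0.09 without, with limma adjusted p of 0.642 and 0.738.

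Acadvl, which handles very long chains, varied little between groups. The probe at base 1855 had means of 11.49 in Naive_WT, 11.57 in Naive_KO, 11.42 in DSS_WT and 11.46 in DSS_KO. In Naive_KO the samples read 11.60, 11.52, 11.58 and 11.58, while DSS_WT ranged from 11.22 to 11.71 and DSS_KO from 11.24 to 11.82. The 2 DSS groups thus spread around the naive ones on both sides. Its 4 pairwise differences lay between -0.11 and 0.08, and the 95% confidence intervals reached no further than -0.39 and 0.36. The second probe, at base 2074, was lower in DSS_WT (10.94 to 11.21) than in Naive_WT (11.21 to 11.35) with no overlap, but its difference of -0.23 did not pass (limma adjusted p 0.401).

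Hadhb encodes the thiolase subunit of the trifunctional protein and was the one member whose genotype difference had opposite signs with and without DSS. It read 11.65, 11.74, 11.88 and 11.66 in Naive_WT and 11.48, 11.39, 11.29 and 11.49 in Naive_KO. All Naive_KO samples lay below all Naive_WT samples, and 12.3% of all probes had no overlap between these groups in one direction or the other. With DSS it read 11.48, 11.86, 11.30 and 11.42 in WT and 12.22, 11.55, 11.41 and 11.47 in Mbd2KO, where the groups overlapped and replicate 5 of DSS_KO was the highest. Mbd2KO minus WT was -0.32 ± 0.16 (SE) without DSS and 0.15 ± 0.16 with it, with limma adjusted p of 0.246 and 0.646. The test of the difference between both, 0.47 (95% confidence interval -0.01 to 0.95), gave a limma adjusted p of 0.480, so no difference between the conditions was shown.

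Pparg at base 1436 read 11.02, 10.57, 10.68 and 10.29 in Naive_WT and 10.55, 10.63, 10.67 and 11.12 in Naive_KO. With DSS it read 10.65, 10.94, 10.70 and 10.50 in WT and 10.82, 10.54, 10.99 and 10.51 in Mbd2KO. The samples of all 4 groups overlapped, and the means lay between 10.64 and 10.74. The differences were 0.02 (Mbd2KO minus WT with DSS), 0.10 (the same without DSS), 0.06 (DSS minus naive in WT) and -0.03 (in Mbd2KO), with limma adjusted p of 0.753 to 0.965. The 95% confidence intervals reached from -0.38 to 0.46, so the spread allowed changes of up to 1.37-fold. The probe at base 287, in a different stretch of the transcript, had means of 7.71 to 7.94 and differences of -0.12 to 0.23. Pparg also marks fat cells, whose defining genes Adipoq, Plin1 and Fabp4 were detected on 0 of 18 arrays. The summed linear intensity of the 4 tested markers among the 9 of the adipocyte list was 119 to 154 in Naive_WT, 136 to 171 in DSS_WT, 176 to 233 in Naive_KO and 166 to 227 in DSS_KO. Of these 4, Cidec passed as higher in Mbd2KO in both conditions, and 0 of the other 3 (Lep, Lipe and Adrb3) passed in either by limma, with 1 of them at an unadjusted p under 0.05 in each.

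**Figure D2:**
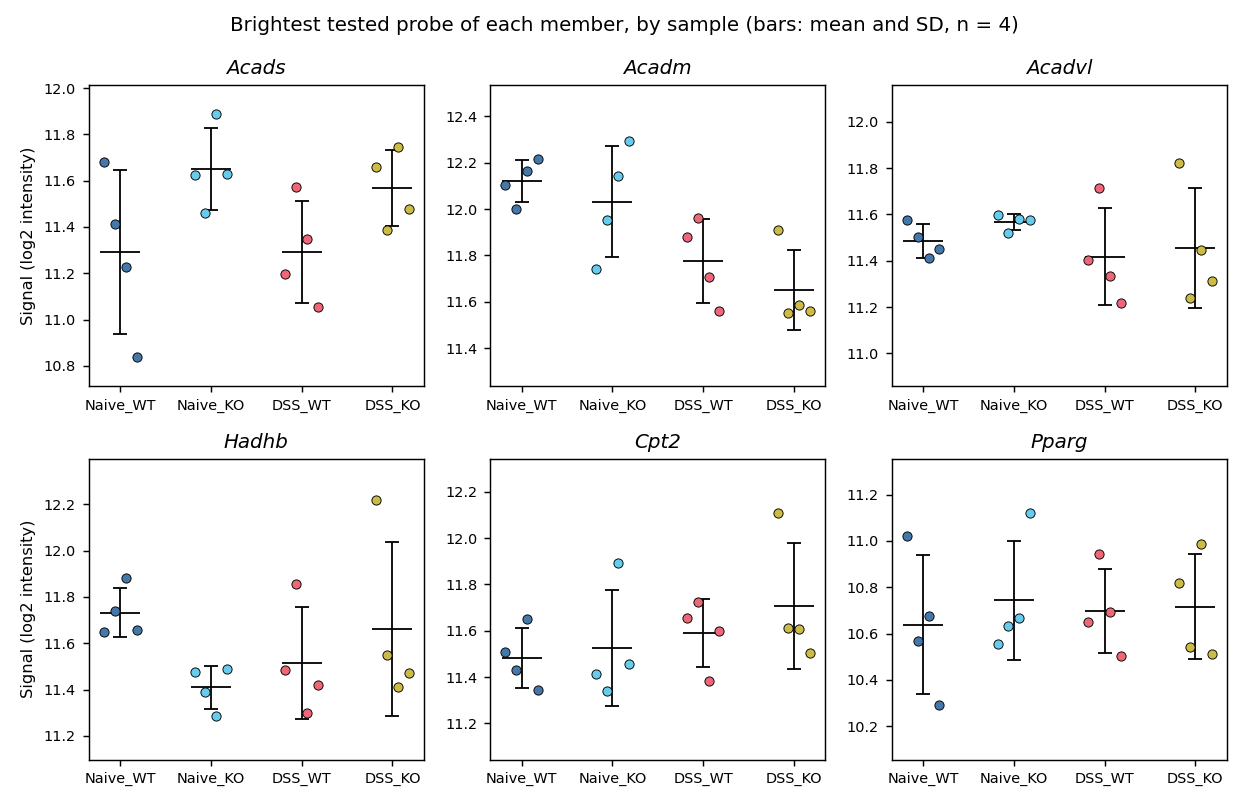
Normalized log2 intensity of the brightest probe of Acads, Acadm, Acadvl, Hadhb, Cpt2 and Pparg in each of the 16 samples, by group, with the group mean and SD (n = 4). Acadm lies lower in both DSS groups, Acads higher in both Mbd2KO groups, and groups that are neighbours in the order of their means overlap in every panel.

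Counted over the 6 tested genes, 0 passed an adjusted p of 0.05 in any of the 4 pairwise comparisons or in the test of the difference between genotype effects (limma). The background was 5.63% of probes for DSS_KO against DSS_WT, 5.19% for Naive_KO against Naive_WT, 10.5% for DSS_WT against Naive_WT, 9.42% for DSS_KO against Naive_KO and 0% for the difference between genotype effects. At an unadjusted p under 0.05, 1 of the 11 probes passed in each of the 4 pairwise comparisons and 0 in the last, beside 22.2%, 22.8%, 26.3%, 24.5% and 10.7% of all probes. With so few genes, 0 called lies near these backgrounds. The median difference over the 6 genes was 0.08, 0.06, -0.03, -0.05 and -0.04 in the same order, beside -0.003, -0.001, -0.010, -0.016 and -0.012 over all tested probes. The median absolute difference of the members was 0.12, 0.10, 0.09 and 0.15 in the 4 pairwise comparisons, beside 0.17, 0.18, 0.20 and 0.19 over all probes. The 95% confidence intervals bound what could have been missed. Over all member probes, the most extreme change they allowed was 1.81-fold, 1.70-fold, 1.54-fold and 1.58-fold. The groups did not overlap for 0, 1, 2 and 0 of the 11 probes in the 4 pairwise comparisons, beside 14.7%, 12.3%, 17% and 15.9% of all probes. When each probe's group means were put in order, the samples of all neighbouring groups overlapped for each of the 11 probes.

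**Figure D3:**
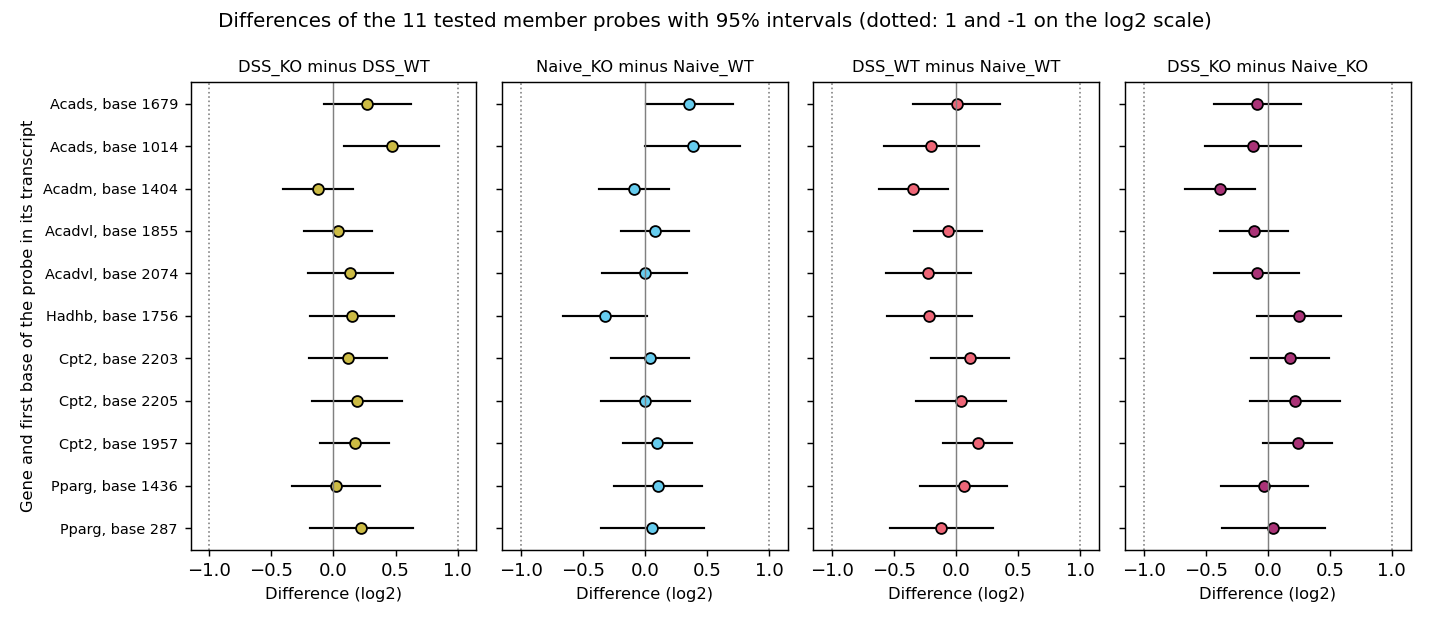
Difference in log2 intensity with its 95% confidence interval for each tested member probe in the 4 pairwise comparisons (DSS_KO minus DSS_WT, Naive_KO minus Naive_WT, DSS_WT minus Naive_WT and DSS_KO minus Naive_KO). All 11 probes have an adjusted p above 0.05 in each comparison, and the lowest, 0.0831, belongs to Acadm in DSS_KO against Naive_KO.

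Within the DSS groups, member probes often had the same extreme sample. Replicate 5 of DSS_KO was the highest of its group for 9 of 11 member probes, replicate 2 of DSS_WT was the highest for 9, and replicate 4 of DSS_WT was the lowest for 8. In the naive groups the highest sample was shared by at most 6 probes in Naive_WT and 5 in Naive_KO. These counts include 3 probes of Cpt2, 2 of which overlap. Cpt2 and Hadhb show it most plainly, with 12.11 and 12.22 in replicate 5 against at most 11.61 and 11.55 in the rest of DSS_KO. Replicates 4 and 5 were each measured on a pair of arrays, and the 11 member probes differed between the arrays of a pair by a median of 0.07 and 0.04, at most 0.21 and 0.23.

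Over the 16 samples the profiles of the members were compared after each was set to mean 0 and SD 1, with the root mean square distance as the measure, where 0 is an identical profile. Among the 6 tested members, the nearest pair was Acads and Pparg (0.796) and the farthest was Acads and Hadhb (1.39), which is about the median distance of a member to any gene, 1.36 to 1.40. The genes nearest to Hadhb were Eci2 (0.561) and Hadh (0.568), both enzymes of fatty acid oxidation, and Adtrp (0.573). The nearest to Cpt2 were Tbx6 (0.510), Acot4 (0.537), a thioesterase, and Fcgrt (0.553). Acadm lay nearest to Ackr4 (0.365), Mep1a (0.378), a protease of the brush border, and LOC245069 (0.391). Acads lay nearest to LOC236060 (0.509), Ifna1 (0.511) and Apob (0.517), Acadvl to Mfsd7a (0.559), Slc13a2 (0.590) and Epb4.1l4a (0.601), and Pparg to Tubal3 (0.397), Abcb6 (0.537) and Eps8l2 (0.576). These distances are descriptions over 16 samples that share their libraries and the 4 groups.

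The other genes of the pathway were taken from 10 lists of 173 genes, of which 138 had a tested probe, and each gene is given by its brightest tested probe. The lists were chosen with earlier results of these data known. With DSS, 4 of these genes rose and 11 fell in WT, and 4 rose and 11 fell in Mbd2KO, which is 10.9% of the 138 in each. Of all probes, 5.71% rose and 4.75% fell in WT, and 4.9% rose and 4.52% fell in Mbd2KO. Leaving out 1 sample moved these counts to 3 to 5 higher and 3 to 10 lower in WT (3 lower without DSS_WT replicate 4 or Naive_WT replicate 12, and 4 without Naive_WT replicate 10 or 11), and to 3 to 5 higher and 6 to 12 lower in Mbd2KO (6 without DSS_KO replicate 8, and 7 without Naive_KO replicate 15 or 16). The split also depended on the scale. With arrays scaled to the median of the tested probes, 8 rose and 7 fell in WT and 5 rose and 8 fell in Mbd2KO. With arrays scaled to the median of all probes, 33 rose and 4 fell in WT and 32 rose and 2 fell in Mbd2KO, while among all probes called with DSS the share that rose went from 54.6% and 52% to 93% in each. For genotype, 4 rose and 3 fell in DSS_KO against DSS_WT (beside 2.46% and 3.17% of all probes), 4 rose and 2 fell in Naive_KO against Naive_WT (beside 2.43% and 2.77%), and the difference between genotype effects passed for 0 (10 at an unadjusted p under 0.05, beside 10.7% of all probes). Without 1 sample, DSS_KO against DSS_WT gave 0 to 4 in each direction, with 0 and 0 when DSS_KO replicate 5 was left out, 0 higher and 1 lower without DSS_WT replicate 4, and 1 higher and 0 lower without DSS_WT replicate 2. Naive_KO against Naive_WT gave 2 to 4 higher and 0 to 3 lower, with 2 and 0 when Naive_WT replicate 10 was left out.

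**Figure D4:**
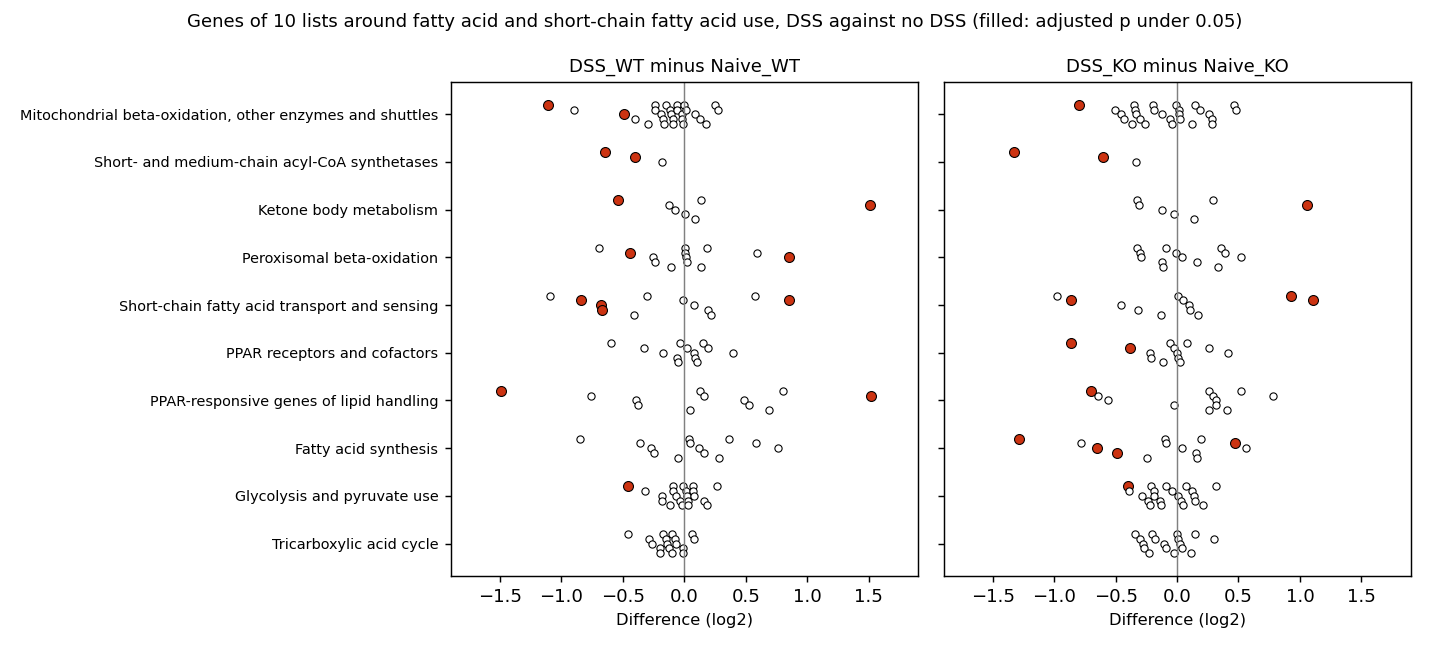
Difference in log2 intensity between DSS and naive samples, in WT and in Mbd2KO, for the 138 tested pathway genes. Each genotype has its own naive samples. The 6 pathway genes that passed in both were Acsm3, Acss2, Acsl1, Slc5a8, Emb and Bdh2.

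Of 12 tested genes for the transport and sensing of short chains, 1 rose and 3 fell with DSS in WT (beside 5.71% and 4.75% of all probes), and 2 rose and 1 fell in Mbd2KO (beside 4.9% and 4.52%). Of 3 tested synthetases for short and medium chains, 2 fell in each genotype. The falls in WT included Bsg, which escorts Slc16a1 to the membrane (-0.84, limma adjusted p 0.0355, lost without any 1 of 6 of 8 samples), and Ffar3, a receptor for short chains (-0.68, 0.0388, lost without any 1 of 7). Without background correction these differences were -0.26 (0.0557) and -0.35 (0.0305). Both calls were lost on the all-probe median scale (0.0657 and 0.171). A second Bsg probe gave -0.72 (0.0450), and a second, dimmer Ffar3 probe gave 0.13 (0.685). Slc5a8, a sodium-coupled carrier of butyrate, read 12.18, 12.43, 12.31 and 12.68 in Naive_WT and 11.94, 12.09, 11.69 and 11.21 in DSS_WT. In Mbd2KO it read 12.49, 12.72, 12.55 and 12.49 without DSS and 11.83, 11.32, 12.11 and 11.52 with it. No DSS sample of Slc5a8 reached its naive group in either genotype. The difference was -0.67 ± 0.19 (SE) in WT and -0.87 ± 0.19 in Mbd2KO, with limma adjusted p of 0.0328 and 0.00922. On the scale of the all-probe median these were -0.29 and -0.46 (limma adjusted p 0.217 and 0.0640), and the call in WT was lost without any 1 of 5 of its 8 samples. Acss2, which joins acetate to coenzyme A, had differences of -0.40 and -0.60 (limma adjusted p 0.0451 and 0.00626), and both calls were lost on the all-probe median scale (-0.01 and -0.22, limma adjusted p 0.960 and 0.303). Its call in WT was lost on the tested-probe median scale as well (0.103) and without any 1 of 6 of 8 samples. The colonocyte markers Car2, Car4 and Aqp8 fell with DSS in Mbd2KO beside Slc5a8 and Acss2. Of all 12 such markers, 8 had lower and 4 had higher means in that comparison. Their sums overlapped, at 59652 to 82159 in Naive_KO and 53786 to 69011 in DSS_KO. In WT, where Slc5a8 and Acss2 fell as well, only Car2 passed as lower, and 5 of the 12 were higher. The part of colonocytes was not tested.

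Acsm3, a mitochondrial synthetase that joins butyrate and somewhat longer chains to coenzyme A, read 11.28, 11.53, 11.40 and 12.15 in Naive_WT and 10.94, 11.09, 11.08 and 10.65 in DSS_WT. It read 11.34, 11.78, 11.50 and 11.70 in Naive_KO and 9.82, 10.68, 10.43 and 10.09 in DSS_KO. In both genotypes every DSS sample of Acsm3 lay below every naive one, and 3 of the 4 DSS_KO samples lay below all other samples. DSS minus naive was -0.65 ± 0.20 (SE) in WT and -1.33 ± 0.20 in Mbd2KO (1.57-fold and 2.51-fold lower, limma adjusted p 0.0473 and 0.000887). The call in Mbd2KO passed under every scaling and without any 1 sample, while that in WT was lost without any 1 of 7 of its 8 samples, on the all-probe median scale (-0.26, limma adjusted p 0.404) and on the tested-probe median scale (0.0612). A second bright Acsm3 probe gave -0.62 and -1.09 (limma adjusted p 0.0410 and 0.00204). The test of the difference between genotypes gave -0.68 (limma adjusted p 0.393), so a larger fall of Acsm3 in Mbd2KO was not shown. In DSS_KO against DSS_WT, the brightest Acsm3 probe differed by -0.69 and did not pass (limma adjusted p 0.0521). The second gave -0.65, at the limit of the test (0.04998), and the third gave 0.32 (0.590). Acsl1, the synthetase for long chains, fell by 1.11 in WT and by 0.80 in Mbd2KO (limma adjusted p 0.00232 and 0.0174). The call for Acsl1 in Mbd2KO was lost on the all-probe median scale (0.185), without DSS_KO replicate 5 (0.0599) and without Naive_KO replicate 15 (0.0507). Without background correction the differences of Acsl1 were -0.64 and -0.48.

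Among genes that rose with DSS, Emb, a partner of monocarboxylate carriers at the cell surface, had means of 6.04 in Naive_WT, 6.89 in DSS_WT, 5.68 in Naive_KO and 6.79 in DSS_KO. The rises of Emb were 0.86 and 1.11 (limma adjusted p 0.0346 and 0.00990), the former lost without any 1 of 6 of its 8 samples. Bdh2, a cytosolic dehydrogenase of the ketone body family, rose from 5.55 to 7.07 in WT and from 5.53 to 6.59 in Mbd2KO, by 1.51 and 1.06 (limma adjusted p 0.000372 and 0.00320). Hcar2, a surface receptor for butyrate that is also found on myeloid cells, rose in Mbd2KO by 0.93 (limma adjusted p 0.00731) and differed in WT by 0.57 (0.0698). The sizes for these dim probes rest on the background correction: without it Emb rose by 0.36 and 0.45, Bdh2 by 0.63 and 0.39, and Hcar2 in Mbd2KO by 0.38, and all 5 calls passed. The myeloid sums given above moved with Emb and Hcar2, and their part was not tested.

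**Figure D5:**
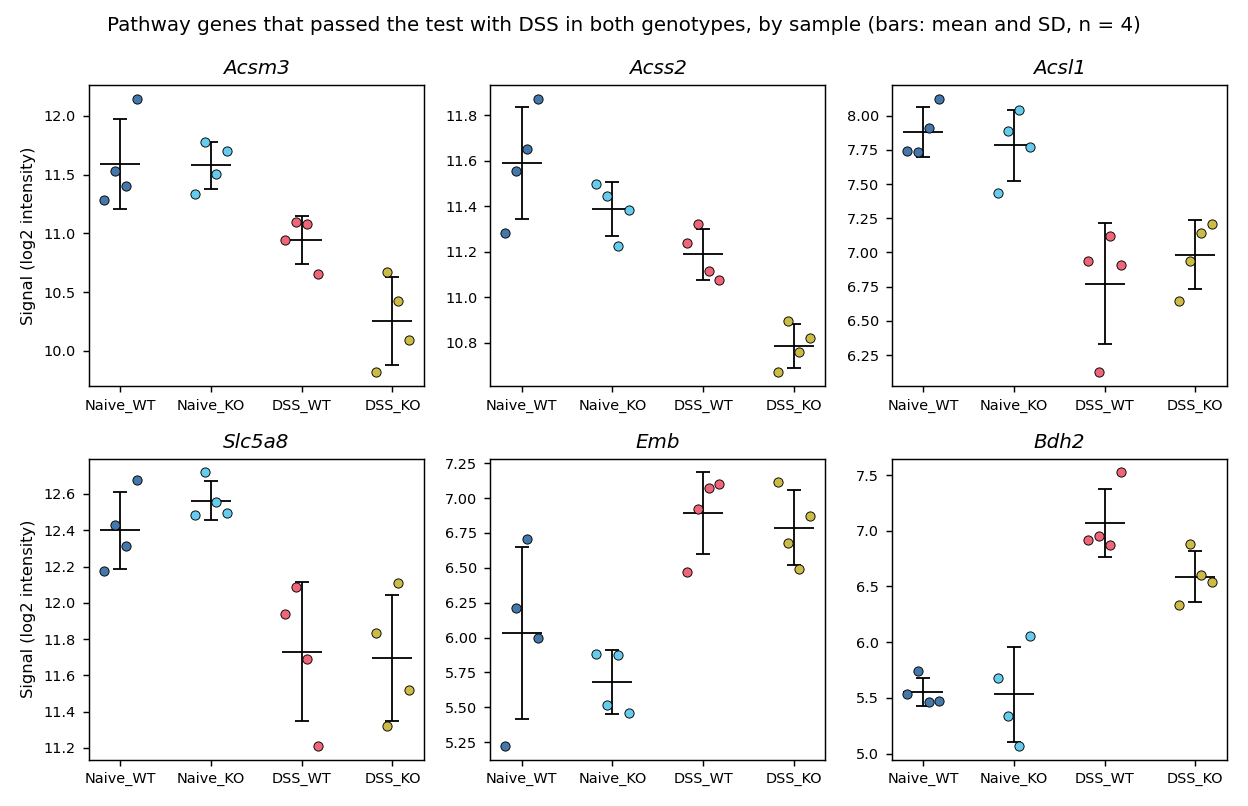
Normalized log2 intensity of Acsm3, Acss2, Acsl1, Slc5a8, Emb and Bdh2 in each of the 16 samples, by group, with the group mean and SD (n = 4). The first 4 lie lower and the last 2 higher in both DSS groups than in the naive group of the same genotype.

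The oxidation enzymes inside the mitochondrion gave the following counts. Of 27 other tested enzymes and shuttles of mitochondrial oxidation, 0 rose and 2 fell with DSS in WT (Hadh and Acsl1, beside 4.75% of all probes), 0 rose and 1 fell in Mbd2KO (Acsl1, beside 4.52%), and 1 rose and 1 fell in DSS_KO against DSS_WT (beside 2.46% and 3.17%). Hadh fell by 0.49, a call lost without any 1 of 5 of 8 samples and without background correction (-0.13, limma adjusted p 0.0712). The pair called for genotype with DSS was Acadl, the long-chain dehydrogenase (0.76, limma adjusted p 0.0247), and Acsl3, a long-chain synthetase (-0.84, limma adjusted p 0.0290), lost without any 1 of 4 and of 5 of their 8 samples. A second Acadl probe, almost as bright, gave 0.64 (0.219), and a dim one gave 0.18 (0.584). A dimmer Acsl3 probe gave -0.41 (0.383). Of 17 enzymes of the tricarboxylic acid cycle, 0 passed in any of the comparisons by limma, with 1 to 3 at an unadjusted p under 0.05, where 22.2% to 26.3% of all probes stood in the pairwise comparisons and 10.7% in the test of the difference between genotype effects. In ketone body metabolism, Oxct1, which starts the use of ketone bodies, was lower in DSS_KO than in DSS_WT (-0.53, limma adjusted p 0.0323), a call lost without any 1 of 7 of 8 samples. A second bright Oxct1 probe gave -0.41 and did not pass (0.201). Acat1, a thiolase, was lower in Naive_KO (-0.60) and in DSS_WT (-0.54) than in Naive_WT (limma adjusted p 0.0141 and 0.0134). These comparisons share the Naive_WT samples, the Acat1 probe was detected on 2 of 4 Naive_KO arrays, and the Naive_KO call was lost without Naive_WT replicate 10 (limma adjusted p 0.0548). Without background correction the differences of Acat1 were -0.16 and -0.15.

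The partners and targets of Pparg were taken next. Of 13 other receptors and cofactors of the PPAR family, 0 passed in DSS_WT against Naive_WT (3 at an unadjusted p under 0.05, beside 26.3% of all probes) and 2 fell in DSS_KO against Naive_KO, Ppargc1a by 0.87 (0.49 without background correction) and Ncor1 by 0.38 (limma adjusted p 0.0173 and 0.0235, beside 4.52% of all probes), both lost on the all-probe median scale and without any 1 of 3 and of 4 of their 8 samples. Of 12 tested genes on the list of PPAR-responsive genes of lipid handling, 2 rose in Naive_KO against Naive_WT (Me1 and Cidec, beside 2.43% of all probes) and 1 in DSS_KO against DSS_WT (Cidec, beside 2.46%). With DSS, 1 rose and 1 fell in WT (Me1 and Pck1, beside 5.71% and 4.75%), and 1 fell in Mbd2KO (Tsc22d3, beside 4.52%). Me1, the malic enzyme, was 1.75 ± 0.28 (SE) higher in Naive_KO than in Naive_WT (3.37-fold, limma adjusted p 0.00200) and 1.52 higher in DSS_WT than in Naive_WT (limma adjusted p 0.00262), with Naive_WT as a shared group. Without background correction Me1 was higher by 0.80 and 0.64. Cidec, a lipid droplet protein, was higher in Naive_KO by 1.06 and in DSS_KO by 0.79 (limma adjusted p 0.0107 and 0.0388), the latter lost without any 1 of 7 of 8 samples. Without background correction Cidec was higher by 0.38 and 0.33, and it is itself one of the 4 adipocyte markers summed beside Pparg. Pck1, of glyceroneogenesis, fell with DSS in WT by 1.49 (limma adjusted p 0.000427), or by 0.83 without background correction. Tsc22d3, a leucine zipper protein that glucocorticoids induce and not itself an enzyme or carrier of lipids, fell with DSS in Mbd2KO by 0.70 (limma adjusted p 0.00853), a call lost on the all-probe median scale (-0.32, 0.209). In WT this Tsc22d3 probe differed by -0.39 (0.104), while a dimmer Tsc22d3 probe fell in WT and in Mbd2KO (limma adjusted p 0.00211 and 0.00317).

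The last 3 lists lie at the edges of the pathway. Of 13 tested genes of peroxisomal oxidation, 1 rose and 1 fell with DSS in WT (Acox2 and Scp2, beside 5.71% and 4.75% of all probes). In Mbd2KO with DSS, 0 passed (4 at an unadjusted p under 0.05, beside 24.5% of all probes). In DSS_KO against DSS_WT, 1 rose and 1 fell (Decr2 and Acox2, beside 2.46% and 3.17%). These calls for Decr2 and Acox2 were lost without any 1 of 6 and of 7 of their 8 samples. The Scp2 call was lost without any 1 of 5 of 8 and on both median scales. Acox2, an oxidase of branched chains, rose in WT by 0.85 (limma adjusted p 0.00766), or by 0.37 without background correction, and passed without any 1 sample. Of 13 genes of fatty acid synthesis, 0 passed with DSS in WT (6 at an unadjusted p under 0.05, beside 26.3% of all probes). In Mbd2KO, 1 rose and 3 fell (beside 4.9% and 4.52%). There Scd2, a desaturase, fell by 1.29 (limma adjusted p 0.0134) and passed under all 3 other scalings and without any 1 sample. The falls of Srebf1 and Mlxipl were lost on the all-probe median scale and without any 1 of 7 and of 5 of 8 samples. The rise of Slc25a1 was lost without any 1 of 3. Of 21 genes of glycolysis and pyruvate use, 1 fell with DSS in each genotype, Pfkm in WT and Pdhb in Mbd2KO (beside 4.75% and 4.52% of all probes). Both calls were lost on both median scales and without any 1 of 6 and of 7 of their 8 samples. Pfkp, a phosphofructokinase, was higher in Mbd2KO by 0.78 with DSS and by 0.79 without (limma adjusted p 0.0303 and 0.0321), each call lost on the all-probe median scale and without any 1 of 5 of 8 samples. Over all 10 lists, 16 of the 43 calls passed without any 1 sample, and 21 passed under all 3 other scalings.

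The promoters of the members were read from RefSeq (GRCm38.p6), since Mbd2 binds methylated CpG. No methylation was measured here. In windows from 250 bases before to 50 after the start, 10 of 11 member windows, Hadha's included, held more CpG pairs than the median of 7 over all 32851 windows. The count was 42 for Slc16a1, reached by 3.03% of all windows, 24 for Hadhb (20%), 22 for Cpt1a (23.1%), 20 for Hadha (26.5%), 17 each for Acads and Cpt2 (31.4%), 13 for Acadm (37.9%) and 9 for Acadvl (45.8%). The windows of Hadha and Hadhb, whose starts lie 273 bases apart on opposite strands, overlap, so their counts are not separate. RefSeq lists 3 starts for Pparg, with 44, 13 and 2 CpG pairs. The DR1 motif read by PPARs, here the letters AGGTCA repeated with any 1 base between, was in 0 of the 11 windows on either strand, beside 0.0396% of all windows, which says only that these letters are not there.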

How the data were processed

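Expression was measured on Illumina MouseWG-6 BeadChips, with 18 arrays. The deposited table gives the intensity of each probe as the mean over its beads on a linear scale, and per the file headers no normalization was applied. The deposited detection p-value is the share of negative controls brighter than the probe. The submitters' processing notes name lumi and limma. The authors' normalized values were not used here, and 36 columns with the number of arrays and the array SD were left out.

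From these, signals of 45281 probes were corrected for background with 936 negative controls, then quantile-normalized and logged (log2) by neqc of limma 3.58.1 in R 4.3.3, with an offset of 16. A probe was tested if its detection p was under 0.05 on at least 4 arrays (21938 probes, 15757 genes), and 23343 were not. Arrays 4 and 4R, and 5 and 5R, were averaged, because each pair differed by less (SD of the log2 difference 0.194 and 0.236) than any other pair of its group (0.334 to 0.482 and 0.287 to 0.419). The labels do not explain the letter R. One limma model of 4 group means was fitted to the 16 samples, all two-sided, with Benjamini-Hochberg adjustment over all tested probes within each comparison. "Passed" means an adjusted p under 0.05. The fit was checked on simulated data.

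The brightest tested probe stood for a gene. From each pathway list, up to 3 genes with the largest rise and fall among those that passed could be named for each comparison. The members, the lists and the tests were chosen with earlier results of these data known. The RNA came from several experiments that the labels do not tie to samples, so no batch could be modelled. Alternatives covered background correction, scaling, the detection filter, the repeat arrays, array weights, the samples in the fit, the choice of probe, and leaving out each sample. The number of arrays limits the precision. The probe positions in the table come without a stated build, so no genome coordinates are given.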

Additional observations from a re-analysis of the deposited data

Results flagged for a closer look

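For 9 of 168 sets of 4 samples examined (each a probe in a group), the highest or lowest sample lay far from the other 3 by Dixon's criterion, where chance alone gives about 1 in 20. Among the members these were 3 of 44. The Acads probe at base 1014 read 9.40 in DSS_KO replicate 8, below the rest of the group at 9.85 to 9.92. Acadm read 11.91 in DSS_KO replicate 5, above the rest at 11.55 to 11.59. The Cpt2 probe at base 2205 read 11.56 in Naive_KO replicate 15, above the rest at 11.02 to 11.06.

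Among the pathway genes, Bdh2 was highest in DSS_WT replicate 4 at 7.52, Bsg stood apart in DSS_KO replicate 7 at 5.98, Cidec was highest in DSS_WT replicate 2 at 6.24, and Pck1 was highest in DSS_WT replicate 2 at 7.12. In Naive_WT replicate 12, Scd2 was highest at 11.19, and Srebf1 stood apart at 7.55.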

How the results depend on the processing

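Of 572 recalculations of the 30 pairs of a member and a comparison, 6 passed an adjusted p of 0.05 by limma and 66 changed sign. For DSS_WT against Naive_WT, 1 member passed when arrays were scaled to the median of all probes (Cpt2, 0.50, adjusted p 0.0303) and 1 with all 18 arrays as separate samples (Acadm, -0.39, 0.0469). For DSS_KO against Naive_KO, 2 passed under the all-probe median (Hadhb, 0.67, 0.00842, and Cpt2, 0.59, 0.0150), 1 with array weights (Acadm, -0.37, 0.0493), and 0 to 1 when each sample was left out (1 without Naive_KO replicate 13). Averaged over genotypes, DSS gave 5 members under the all-probe median and 0 under the tested-probe median, where 1 passed as reported. Averaged over DSS and naive, Mbd2KO gave 1 member with 18 separate arrays and 0 to 1 when each sample was left out (1 without Naive_WT replicate 9), where 0 passed as reported. Of 749 recalculations of the 43 pathway calls, 525 passed, 223 did not, and 1 reversed: Ncor1 in DSS_KO against Naive_KO, 0.0023 under the all-probe median. The cause was not tested. Over the alternatives other than leaving out samples, the pathway genes that rose and fell ranged from 3 to 33 and from 4 to 20 with DSS in WT, and from 4 to 32 and from 2 to 21 in Mbd2KO. For genotype they ranged from 0 to 8 and from 1 to 8 with DSS, and from 2 to 7 and from 1 to 3 without. Without 1 sample at a time the pathway falls with DSS ranged from 3 to 10 in WT and from 6 to 12 in Mbd2KO, and all probes called from 2.12% to 5.73%, 2.05% to 6.24%, 5.55% to 10.5% and 4.99% to 10.2% in the order that follows. Otherwise the share of all probes called ranged from 1.65% to 12.8% (DSS_KO against DSS_WT), from 1.94% to 7.06% (Naive_KO against Naive_WT), from 3.99% to 24% (DSS in WT) and from 3.73% to 20.8% (DSS in Mbd2KO). No paired analysis was possible because the replicate numbers in the labels run on from group to group and are never shared. A block for the slide was not run, since no slide is given. For Slc16a1 and Cpt1a, signal over background sets the limit.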
